A study of Homo sapiens with 6 samples.

Results

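The kinesin family was read as every gene of the count table whose symbol is KIF followed by a number and at most a letter and a digit, or KIFC followed by a digit. This gave 42 genes of the 78932 in the table. By their known roles 14 were set apart as mitotic kinesins, 15 as transport kinesins and 13 as other kinesins. Of the 42 genes, 37 had at least 10 counts in at least 3 libraries and were tested, namely 13 mitotic, 15 transport and 9 other kinesins.

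The libraries came from T24, a human bladder carcinoma cell line. The control group (siNC) was 3 cultures given a non-targeting siRNA, and the knockdown group (siTRIM28) was 3 cultures given siRNA against TRIM28, a nuclear corepressor and SUMO E3 ligase. The labels call the cultures of a group biological replicates and give all 6 libraries batch 1. The time after transfection and the TRIM28 siRNA that these cultures received are not given in the sources used here. All cultures are of a single cell line, so the p-values measure the spread between the libraries of that line.

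Kinesins are motor proteins that use ATP to walk along microtubules or to take microtubule ends apart. Mitotic kinesins build the spindle, move and align chromosomes and separate the daughter cells, and most are made mainly in G2 and M phase. Transport kinesins carry vesicles, organelles, proteins and RNA, and the heavy chains of kinesin-1 and the subunits of kinesin-2 work in complexes with light chains or an accessory subunit.

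Many genes of G2 and M phase share 2 short elements near the transcription start, the cell cycle genes homology region (CHR), with the core TTTGAA, and the box CCAAT of the factor NF-Y. Promoter windows from RefSeq (GRCh38.p14, 250 bases before to 50 after the start) were matched for 34 of the 42 kinesins, and 8 had no window. The stretches below run from 90 bases before the start to 10 after it, 5′ to 3′ on the strand of the gene, for 5 mitotic kinesins that rose, 1 that fell and the transport kinesin that fell most. Capitals mark the CHR core and the NF-Y box, on the strand shown or as their reverse complements TTCAAA and ATTGG. The stretches lie at chr15:69414259-69414358 for KIF23, chr10:92593040-92593139 for KIF11, chr11:28108147-28108246 for KIF18A, chr17:44947764-44947863 for KIF18B, chr5:138179022-138179121 for KIF20A, chrX:70290014-70290113 for KIF4A and chr20:32277561-32277660 for KIF3B, with KIF18A and KIF18B on the minus strand. For KIF11, KIF20A and KIF23 the RefSeq start and the whole printed stretch lie inside the gene as the count table gives it. These genes begin there at 92574105, 138178719 and 69414246.
KIF23: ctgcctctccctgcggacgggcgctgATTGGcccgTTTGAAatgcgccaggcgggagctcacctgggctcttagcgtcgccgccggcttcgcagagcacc
KIF11: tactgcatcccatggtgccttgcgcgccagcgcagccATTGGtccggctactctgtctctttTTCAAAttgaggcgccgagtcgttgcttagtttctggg
KIF18A: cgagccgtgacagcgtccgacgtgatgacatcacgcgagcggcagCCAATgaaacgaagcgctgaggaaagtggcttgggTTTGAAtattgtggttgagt
KIF18B: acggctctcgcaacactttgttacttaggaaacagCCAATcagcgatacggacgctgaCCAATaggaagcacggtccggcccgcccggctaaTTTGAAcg
KIF20A: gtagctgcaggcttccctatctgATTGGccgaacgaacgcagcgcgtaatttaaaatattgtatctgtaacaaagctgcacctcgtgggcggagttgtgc
KIF4A: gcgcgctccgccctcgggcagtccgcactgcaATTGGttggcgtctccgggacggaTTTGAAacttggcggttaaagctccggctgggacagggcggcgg
KIF3B: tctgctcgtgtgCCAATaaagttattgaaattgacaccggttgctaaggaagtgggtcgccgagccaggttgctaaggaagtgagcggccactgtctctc

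Total counts lay between 12989362 and 13942383 in siNC and between 11712623 and 14018052 in siTRIM28. Normalised read counts are given below as CPM (counts scaled to a common library total) after TMM scaling, and changes as log2 fold changes of siTRIM28 over siNC with their standard error (SE). Genes were tested with the quasi-likelihood test of edgeR, and p-values were adjusted by Benjamini-Hochberg over all 18474 genes tested, at a threshold of 0.05. Across those genes 41.8% passed it, 21.3% higher and 20.5% lower in siTRIM28, and the median log2 fold change was 0.02. Distances between replicates were uneven. Compared gene by gene, siNC replicates 1 and 2 gave a chi-square of 1.08 per degree of freedom and siTRIM28 replicates 2 and 3 a value of 1.24, whereas siNC replicate 3 gave 4.54 and 4.61 with its partners and siTRIM28 replicate 1 gave 6.40 and 7.09. Counting noise alone gives a value near 1, and these values do not show whether the close libraries came from separate cultures. All 6 were kept as replicates because the labels call them that. With each close pair summed into 1 sample, 5935 genes were called in place of 7723, and the kinesins called higher and lower were 8 and 1 mitotic, 4 and 2 transport and 2 and 1 other genes.

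TRIM28 itself (ENSG00000130726, chromosome 19, 58544064 to 58550649) had 102, 101 and 108 CPM in siNC and 9.28, 8.11 and 9.21 CPM in siTRIM28. It fell by 3.54 on the log2 scale (SE 0.0723, edgeR adjusted p = 1.03e-10). Of the 12 epithelial and urothelial markers 4 were tested, and their summed level was 191 to 198 CPM in siNC and 209 to 216 CPM in siTRIM28. Keratin genes KRT8 (104 and 114 CPM on average) and KRT18 (86.1 and 91.2 CPM) gave most of it, while KRT5, CDH1, EPCAM, GATA3 and the uroplakin genes UPK1B, UPK2 and UPK3A lay at or near 0. GATA3 and the uroplakin genes were not tested, so the urothelial identity rests here on the label. Of the 4 epithelial and urothelial markers tested, KRT7 rose by 0.56 (edgeR adjusted p = 0.0126) and KRT8 by 0.14 (edgeR adjusted p = 0.0354). TP63, with at most 15 counts in a library, rose by 1.01 (edgeR adjusted p = 0.04998), and KRT18 did not pass (edgeR adjusted p = 0.21). Of 12 markers of immune, endothelial, stromal and muscle cells 3 were tested, with summed levels of 354 to 358 and 346 to 371 CPM. Nearly all of that was CD68, a lysosomal protein (log2 fold change 0.01, edgeR adjusted p = 0.794). The other two tested did change: the collagen gene COL1A1 rose by 1.78 on the log2 scale, from 0.932 to 3.28 CPM on average (edgeR adjusted p = 2.21e-04), and the smooth muscle actin gene ACTA2 fell by 0.56, from 7.11 to 4.81 CPM (edgeR adjusted p = 0.00645). Their part in the kinesin values was not tested. The markers CD3E and CDH5 had no count in any library, and PTPRC, CD14 and VWF lay near 0.

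Among the 37 kinesins tested, 18 rose, 6 fell and 13 did not pass the test, where 21.3% of all genes tested were higher and 20.5% lower. The groups did not overlap in 26 of the 37, against 52% of all genes tested. With a change of at least 0.58 on the log2 scale as a second condition, 5 rose and 2 fell, against 9.51% and 7.51% of all genes. The mitotic kinesins leaned one way, with 10 of 13 higher, 1 lower and a median log2 fold change of 0.38. The transport kinesins did not, with 5 of 15 higher, 4 lower and a median of 0.05, both counts somewhat above the shares over all genes. The other kinesins had 3 of 9 higher, 1 lower and a median of 0.19, which was 0.0424 without siTRIM28 replicate 2. Without siTRIM28 replicate 1 the mitotic kinesins had 10 higher and 1 lower (median 0.41), and the transport kinesins 7 higher and 3 lower (median 0.08).

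**Figure D1:**
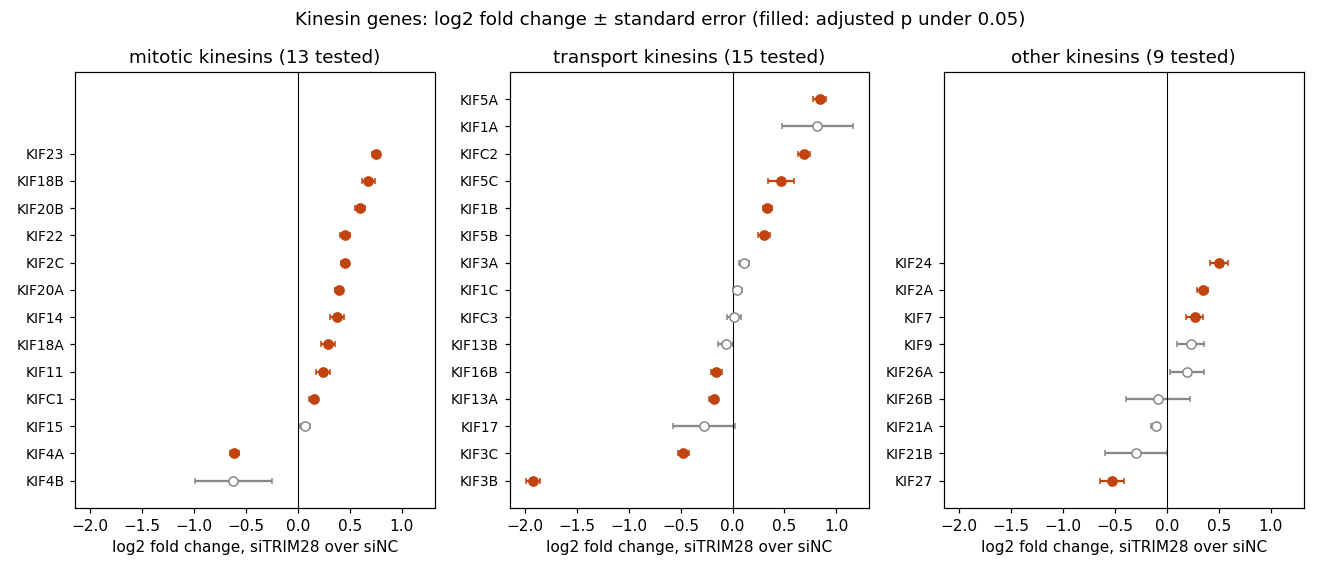
Log2 fold change of siTRIM28 over siNC (x axis) for each kinesin gene tested (y axis), with its standard error as the bar, in 3 panels for mitotic, transport and other kinesins. Filled points passed the test. Mitotic kinesins lie mostly right of 0 with KIF4A at -0.61 apart, and transport kinesins spread from KIF3B at -1.92 to KIF5A at 0.84.

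Summed over the 14 mitotic kinesins, the level was 1544, 1539 and 1582 CPM in siNC and 1925, 2029 and 2010 CPM in siTRIM28, so the groups did not overlap. The 15 transport kinesins summed to 1799, 1814 and 1879 CPM in siNC and to 1862, 2063 and 2014 CPM in siTRIM28, and here siTRIM28 replicate 1 lay inside the siNC range. The other kinesins summed to 226, 231 and 242 CPM and to 244, 249 and 238 CPM. In RNA from whole cultures, a different share of cells in mitosis and a different amount of RNA per cell cannot be told apart.

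The kinesins of the midzone and of cytokinesis, the steps that part the daughter cells, gave the highest and the lowest changes among the mitotic kinesins that passed the test. KIF23 (MKLP1, ENSG00000137807, chromosome 15, 69414246 to 69448396), the motor of centralspindlin, had 235, 235 and 241 CPM in siNC and 390, 404 and 405 CPM in siTRIM28. All 3 siTRIM28 libraries lay far above all 3 siNC libraries. Its mean rose from 237 ± 3.39 to 399 ± 8.27 CPM (SD, n = 3), a log2 fold change of 0.75 (SE 0.038, edgeR adjusted p = 5.31e-08), with a range of 0.73 to 0.77 when each library was left out in turn. KIF23 overlaps the antisense gene KIF23-AS1 over 34151 bases, and that gene had on average 287 counts in siNC and 377 in siTRIM28. Whether the counting used strand is not given in the sources used here.

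KIF20B (MPP1, ENSG00000138182, chromosome 10, 89701590 to 89774939), a plus-end motor needed to complete cytokinesis, had 171, 161 and 171 CPM in siNC and 238, 263 and 260 CPM in siTRIM28. It rose by 0.60 on the log2 scale (SE 0.0489, edgeR adjusted p = 2.16e-06). Its relative KIF20A (MKLP2, ENSG00000112984, chromosome 5, 138178719 to 138187243), which takes the chromosomal passenger complex to the midzone, had 244, 251 and 253 CPM in siNC and 324, 336 and 327 CPM in siTRIM28. The groups were apart for both genes, and the change of KIF20A was smaller, at 0.40 (SE 0.0386, edgeR adjusted p = 8.22e-06). KIF14 (ENSG00000118193, chromosome 1, 200551497 to 200620751), which holds citron kinase at the midbody, had 45.6, 45.0 and 44.4 CPM in siNC and 52.7, 61.0 and 61.7 CPM in siTRIM28. Its log2 fold change was 0.38 (SE 0.0689, edgeR adjusted p = 9.8e-04), and siTRIM28 replicate 1 was the lowest of the 3 knockdown libraries.

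KIF4A (ENSG00000090889, chromosome X, 70290104 to 70420886), a chromokinesin that also sets the length of midzone microtubules, went the other way. It had 172, 177 and 179 CPM in siNC and 116, 116 and 114 CPM in siTRIM28. The siTRIM28 values lay within a narrow band below every siNC value. The mean fell from 176 ± 3.58 to 115 ± 0.836 CPM (SD, n = 3), and KIF4A fell by 0.61 on the log2 scale (SE 0.0408, edgeR adjusted p = 4.35e-07), between -0.64 and -0.60 when each library was left out in turn. It was the single mitotic kinesin called lower, and it was called in 15 of the 15 other fits at this threshold. KIF4A shares 411 bases with PDZD11 on the opposite strand, which had a log2 fold change of -0.03 (edgeR adjusted p = 0.741). KIF4B (chromosome 5), an intronless copy of KIF4A, had 12, 11 and 12 counts in siNC and 4, 8 and 9 counts in siTRIM28 (log2 fold change -0.62, edgeR adjusted p = 0.206), and reads of the 2 genes may not be separable.

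Set per gene length as RPKM (CPM per kilobase of gene length), KIF4A and KIF23 stood at close levels in siNC, 38.5 ± 0.784 and 36.0 ± 0.516 (SD, n = 3). In siTRIM28 they stood at 25.2 ± 0.183 and 60.7 ± 1.26. The ratio of the KIF4A level to the KIF23 level per length was 1.05, 1.08 and 1.07 in siNC and 0.426, 0.412 and 0.406 in siTRIM28. This pair was chosen after the values were seen. The exact two-sided permutation test over the 6 libraries gave p = 0.1, the smallest that 3 against 3 libraries allow, and this held for each single-gene permutation test whose groups did not overlap.

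**Figure D2:**
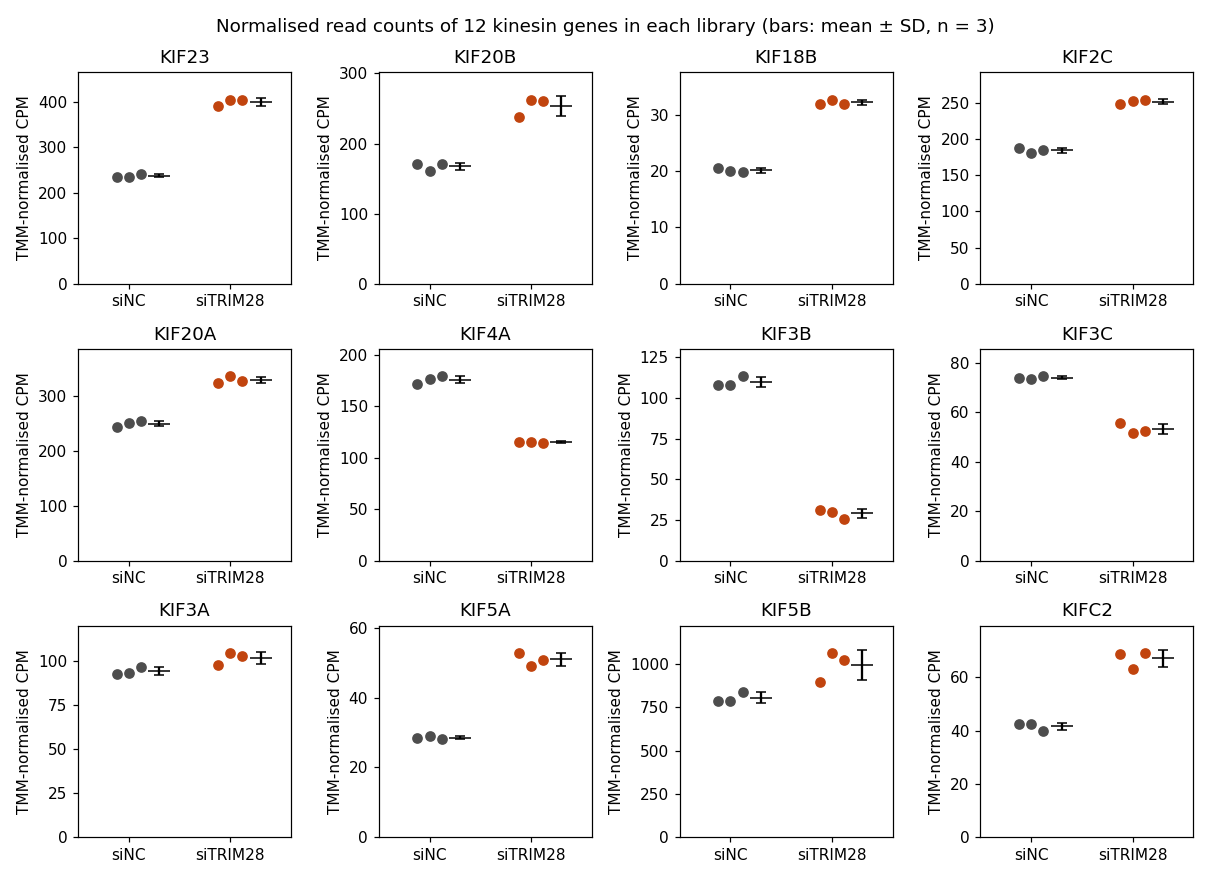
TMM-normalised CPM (y axis, from 0) of 12 kinesin genes in each library of siNC and siTRIM28 (x axis), with bars for the mean and SD of 3 libraries. The groups are apart in all 12 panels: KIF4A, KIF3B and KIF3C are lower in siTRIM28 and the other 9 are higher, although KIF3A did not pass the test.

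KIF18A, KIF18B, KIF2C and KIF22, which move chromosomes or trim microtubule ends, all rose. KIF18B (ENSG00000186185, chromosome 17, 44924709 to 44947773), a motor that shortens astral microtubules, had 20.5, 20.0 and 19.8 CPM in siNC and 31.9, 32.7 and 31.9 CPM in siTRIM28. The libraries of each group were tight, and the log2 fold change was 0.68 (SE 0.0612, edgeR adjusted p = 4.6e-06). KIF18A (ENSG00000121621, chromosome 11, 28020619 to 28108156), which dampens chromosome movements at the metaphase plate, had 39.5, 42.4 and 44.2 CPM in siNC and 50.9, 54.6 and 48.8 CPM in siTRIM28. Its change was 0.29 (SE 0.0675, edgeR adjusted p = 0.00455).

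KIF2C (MCAK, ENSG00000142945, chromosome 1, 44739818 to 44767767), a depolymerase that corrects wrong kinetochore attachments, had 188, 180 and 184 CPM in siNC and 248, 252 and 254 CPM in siTRIM28. It rose by 0.45 on the log2 scale (SE 0.0389, edgeR adjusted p = 3.3e-06). KIF22 (Kid, ENSG00000079616, chromosome 16, 29790727 to 29805301), which pushes chromosome arms away from the poles, had 51.6, 50.2 and 52.1 CPM in siNC and 71.3, 70.9 and 68.4 CPM in siTRIM28, and also rose by 0.45 (SE 0.0522, edgeR adjusted p = 3.27e-05). The groups did not overlap for any of these 4 genes, and the 4 were called in each of the 15 other fits at this threshold. On the opposite strand KIF2C shares 8731 bases with ENSG00000225721, which had on average 656 and 690 counts in siNC and siTRIM28, and KIF22 shares 874 bases with ENSG00000275857, which had 46 and 81.7.

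The motors that set up the bipolar spindle moved least. KIF11 (Eg5, ENSG00000138160, chromosome 10, 92574105 to 92655393), which slides antiparallel microtubules apart, had 137, 138 and 151 CPM in siNC and 150, 177 and 175 CPM in siTRIM28. Replicate 1 of siTRIM28 lay below the highest siNC library, so the groups overlapped. The log2 fold change was 0.24 (SE 0.0656, edgeR adjusted p = 0.0118), and it missed the threshold when siNC replicate 1 or 2 or siTRIM28 replicate 2 or 3 was left out, with adjusted p between 0.0517 and 0.0777. With each close pair of libraries summed the change was 0.18 and missed it too (edgeR adjusted p = 0.168). KIF15 (ENSG00000163808), which can stand in for KIF11, had 119, 118 and 122 CPM in siNC and 122, 125 and 131 CPM in siTRIM28. It did not pass the test (log2 fold change 0.07, edgeR adjusted p = 0.254). KIFC1 (HSET, ENSG00000237649), a minus-end motor that focuses the poles, had 121, 119 and 120 CPM in siNC and 131, 137 and 132 CPM in siTRIM28. Its change of 0.15 (SE 0.0423, edgeR adjusted p = 0.0132) passed in 8 of the 15 other fits at this threshold, and DESeq2 gave an adjusted p of 0.0908. KIF2B, a kinetochore depolymerase, had 1 count in all 6 libraries and was not tested.

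Of the 11 partners of mitotic kinesins on a list drawn up from known roles, 6 rose and 2 fell, with a median log2 fold change of 0.23. Over all genes tested, 21.3% were higher and 20.5% lower. CENPE, the kinesin-7 of the kinetochore whose symbol does not begin with KIF, had 154, 159 and 158 CPM in siNC and 219, 243 and 232 CPM in siTRIM28 and rose by 0.56 (SE 0.0463, edgeR adjusted p = 2.45e-06). Citron kinase (CIT), the midbody kinase that KIF14 binds, rose by 0.68 (SE 0.0439, edgeR adjusted p = 3.38e-07). BIRC5 (survivin), a subunit of the chromosomal passenger complex that KIF20A carries, had 112, 115 and 112 CPM in siNC and 32.9, 37.3 and 34.4 CPM in siTRIM28. It fell by 1.70 on the log2 scale (SE 0.058, edgeR adjusted p = 4.12e-09), with every siTRIM28 library far below every siNC library.

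The remaining partners were named after their values were seen. PLK1 rose by 0.46 (edgeR adjusted p = 0.00258) and TPX2 by 0.23 (edgeR adjusted p = 8.83e-04). Within the passenger complex the kinase gene AURKB fell by 0.42 (edgeR adjusted p = 8.79e-04), CDCA8 (borealin) rose by 0.38 (edgeR adjusted p = 2.18e-04), and the scaffold INCENP had a log2 fold change of -0.05 (edgeR adjusted p = 0.361). RACGAP1, the partner of KIF23 in centralspindlin, had 78.5, 74.1 and 75.3 CPM in siNC and 84.4, 84.1 and 78.7 CPM in siTRIM28, a log2 fold change of 0.12 that did not pass (edgeR adjusted p = 0.0906). ECT2, the exchange factor that centralspindlin recruits, rose by 0.40 (edgeR adjusted p = 2.12e-05). PRC1, the bundling protein that KIF4A binds, had a log2 fold change of 0.03 (edgeR adjusted p = 0.619). So genes whose products share a complex had changes of different size and sign.

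**Figure D3:**
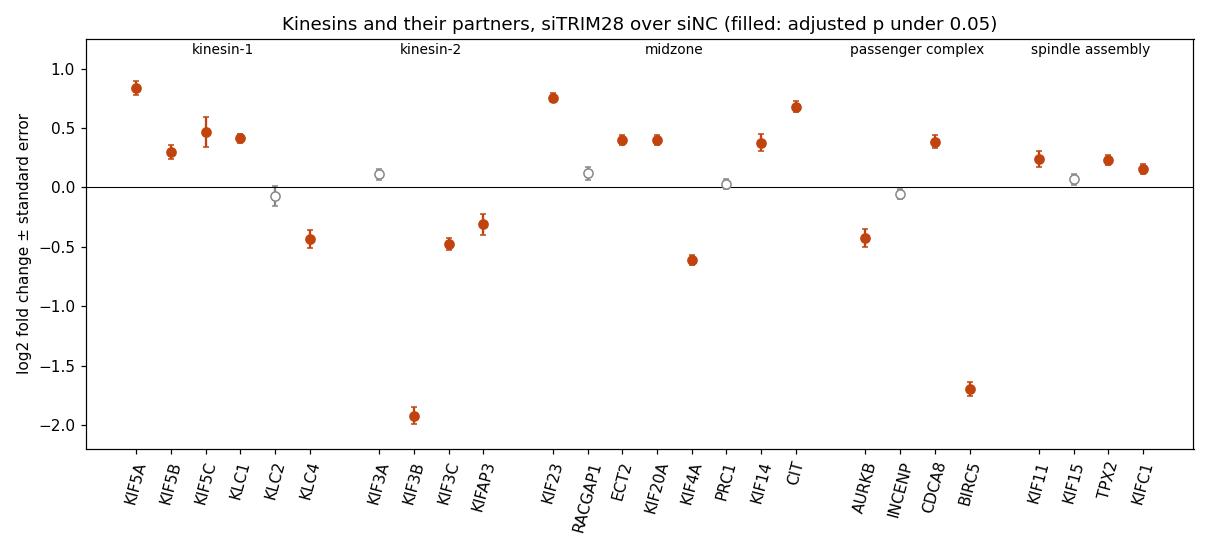
Log2 fold change of siTRIM28 over siNC with its standard error (y axis) for kinesins and partner genes, grouped by complex or structure (x axis). Filled points passed the test. KIF3B at -1.92 and BIRC5 at -1.70 stand far below the other genes of their groups.

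Among 16 other genes of G2 and M phase 10 rose and 2 fell, with a median log2 fold change of 0.22. MKI67, a coat protein of mitotic chromosomes, went from 894 ± 31.1 to 1461 ± 70.0 CPM (SD, n = 3), a log2 fold change of 0.71 (edgeR adjusted p = 2.1e-07). CDC25C, a phosphatase that drives entry into mitosis, rose by 0.66 (edgeR adjusted p = 7.13e-05). UBE2C fell by 0.51 (edgeR adjusted p = 3.08e-05) and CCNB1 by 0.34 (edgeR adjusted p = 1.17e-04), both named after their values were seen. Among 16 genes of S phase 4 rose and 7 fell, with a median of -0.07, against 21.3% higher and 20.5% lower of all genes. The DNA polymerase subunit POLA1 fell by 1.35, the ribonucleotide reductase subunit RRM2 by 1.09 and the helicase subunits MCM2 and MCM6 by 0.70 and 0.64, while the licensing factor CDT1 rose by 0.64 (edgeR adjusted p between 4.08e-08 and 2.66e-04). The part of cell cycle phase in the kinesin values was not tested.

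The promoter windows of the mitotic kinesins held the CHR core more often than windows in general. Searched on both strands, TTTGAA was in 10 of 14 windows of mitotic kinesins (71.4%), against 15.4% of the first windows of 27305 genes. It was in 1 of 11 windows of transport kinesins (KIF5B, a kinesin-1 heavy chain) and in 0 of 9 of the other kinesins. The letters CCAAT were in 11 of 14 mitotic windows (78.6%), 3 of 11 transport windows and 3 of 9 others, against 35.7% of all first windows, and both motifs were in 9 of 14 mitotic windows against 6.08%. Neighbouring matches of the 2 motifs can share an end base, and such matches counted for both.

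The motifs did not separate the mitotic kinesins that rose from the others. Of the 10 that rose, 7 held the CHR core, and KIF2C, KIF20A and KIF22 did not. KIF4A, which fell, held it 34 bases before the start with a reversed NF-Y box from 58 bases before the start. KIF15 and KIF4B, which did not pass the test, held it too. In KIF23 the CHR core began 55 bases before the start and in KIF11 28 bases before it. Among the 12 genes of the G2 and M list with a window 7 held the CHR core, and among 14 genes of the S phase list 1 did. KIF3B held an NF-Y box and no CHR core. A match is a description of letters in a window and says nothing of binding.

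**Figure D4:**
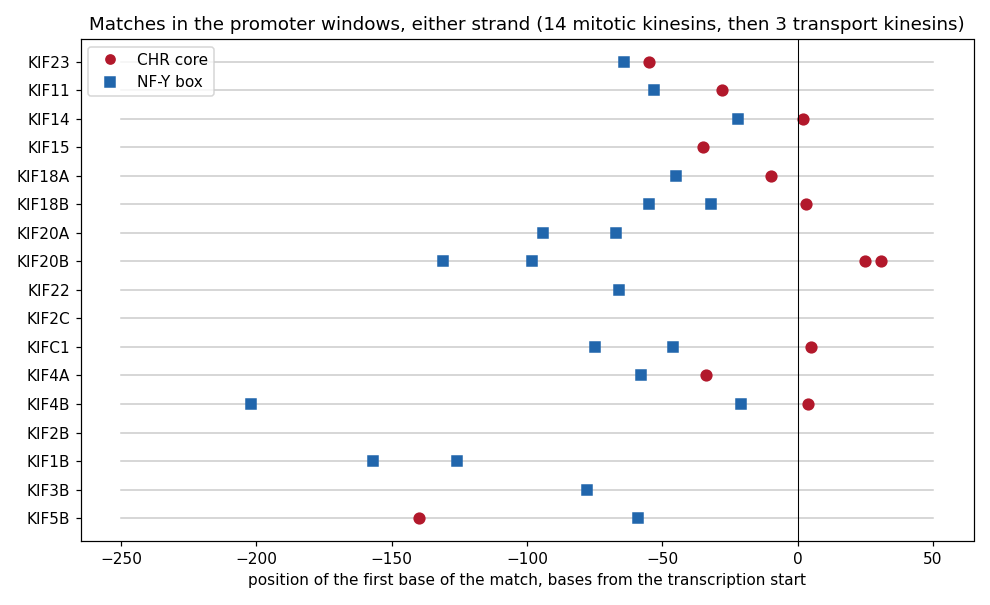
Position of each match to the CHR core (circles) and the NF-Y box (squares), in bases from the transcription start (x axis), in the promoter windows of 14 mitotic kinesins and, in the last 3 lines, KIF1B, KIF3B and KIF5B. Most mitotic windows hold an NF-Y box followed by a CHR core nearer the start, and KIF4A has the same order as KIF23 and KIF11.

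Kinesin-2, a heterotrimer that moves cargo in cilia and the cytoplasm, held the largest change of the family. It pairs KIF3A with KIF3B or KIF3C, and KIFAP3 is the accessory subunit. KIF3B (ENSG00000101350, chromosome 20, 32277651 to 32335011) had 108, 108 and 113 CPM in siNC and 31.4, 29.7 and 25.8 CPM in siTRIM28. These came from 1497, 1500 and 1446 counts and 439, 352 and 306 counts. The highest siTRIM28 library was far below the lowest siNC library. The mean went from 110 ± 3.08 to 29.0 ± 2.83 CPM (SD, n = 3), a change of -73.6%, and KIF3B fell by 1.92 on the log2 scale (SE 0.0699, edgeR adjusted p = 5.93e-09), between -1.98 and -1.86 when each library was left out in turn. Matches between the seed of the TRIM28 siRNA and KIF3B were not analysed here. By log2 fold change the gene ranked 22 from the lowest among 12828 genes with a mean of at least 50 counts.

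The other subunits did not follow to the same extent. KIF3C (ENSG00000084731, chromosome 2, 25926598 to 25982749) had 73.9, 73.3 and 74.5 CPM in siNC and 55.4, 51.6 and 52.4 CPM in siTRIM28. It fell by 0.47 (SE 0.0529, edgeR adjusted p = 2.51e-05). KIF3A (ENSG00000131437, chromosome 5, 132692628 to 132737572) had 92.5, 93.2 and 96.7 CPM in siNC and 97.8, 104 and 103 CPM in siTRIM28. Its log2 fold change of 0.11 did not pass (SE 0.0478, edgeR adjusted p = 0.0885), although it passed with upper-quartile scaling (0.0327), total-count scaling (0.0478) and without siTRIM28 replicate 1 (0.0183). KIFAP3, named after its values were seen, had 21.8, 20.7 and 20.7 CPM in siNC and 17.6, 14.7 and 18.6 CPM in siTRIM28 and fell by 0.31 (SE 0.0854, edgeR adjusted p = 0.0118).

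Per length, the level of KIF3B was 1.31, 1.30 and 1.31 times that of KIF3A in siNC and 0.360, 0.319 and 0.282 times in siTRIM28. The level of KIF3C was 0.857, 0.843 and 0.825 times that of KIF3A in siNC and 0.607, 0.530 and 0.548 times in siTRIM28. In siNC, KIF3B was thus the most abundant of the 3 motor subunits per length (18.0 RPKM, against 13.7 for KIF3A and 11.5 for KIF3C), and in siTRIM28 it was the least (4.74, against 14.8 and 8.30). KIF17, the homodimeric kinesin-2, had 1.10 to 1.52 CPM in siNC and 0.676 to 1.36 CPM in siTRIM28, with overlapping groups and no call (edgeR adjusted p = 0.50).

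Kinesin-1, the main motor for transport towards the cell periphery, was higher in all 3 heavy chains. KIF5B (ENSG00000170759, chromosome 10, 32009015 to 32056425), the form found in all tissues, had 790, 789 and 842 CPM in siNC and 895, 1063 and 1024 CPM in siTRIM28. Replicate 1 of siTRIM28 was the lowest of its group, still above every siNC library, and the log2 fold change was 0.30 (SE 0.0577, edgeR adjusted p = 0.00136). KIF5A (ENSG00000155980, chromosome 12, 57546026 to 57586633), the form known from neurons, had 28.4, 28.9 and 28.1 CPM in siNC and 52.7, 49.2 and 50.8 CPM in siTRIM28. It rose by 0.84 (SE 0.0595, edgeR adjusted p = 7.0e-07), the largest rise among the kinesins that passed.

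KIF5A shares 1116 bases with DCTN2, a dynactin subunit on the opposite strand with on average 1629 counts in siNC and 1431 in siTRIM28. KIF5C, the other neuronal form, had 7.20, 6.07 and 6.66 CPM in siNC and 8.07, 9.29 and 10.3 CPM in siTRIM28 and rose by 0.47 (SE 0.128, edgeR adjusted p = 0.0119). KIF5C missed the threshold without siNC replicate 2 (0.0626) or siTRIM28 replicate 3 (0.067), and with each close pair of libraries summed (0.0542). Of the kinesin-1 heavy chain level per length, KIF5B made up 98.1% to 98.3% in siNC and 97.1% to 97.7% in siTRIM28. The share of KIF5A was 1.57% to 1.72% in siNC and 2.16% to 2.74% in siTRIM28. These shares depend on the deposited gene lengths, 5866 bases for KIF5B, 12245 for KIF5A and 33151 for KIF5C.

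Among the light chains of kinesin-1, named after their values were seen, KLC1 had 175, 174 and 180 CPM in siNC and 232, 237 and 236 CPM in siTRIM28. It rose by 0.41 (SE 0.0387, edgeR adjusted p = 6.34e-06). KLC4 fell by 0.43 (SE 0.0779, edgeR adjusted p = 8.79e-04), and KLC2 did not pass (log2 fold change -0.08, edgeR adjusted p = 0.503). Of the 22 partners of transport kinesins 21 were tested, of which 5 rose and 6 fell, with a median of -0.07. These counts lie near or somewhat above the 21.3% higher and 20.5% lower of all genes. MAPK8IP1 (JIP1), a scaffold that links cargo to kinesin-1, had 34.1, 35.2 and 35.8 CPM in siNC and 11.6, 9.12 and 9.12 CPM in siTRIM28 and fell by 1.80 (SE 0.0906, edgeR adjusted p = 5.22e-08).

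The kinesin-3 motors, which carry vesicles and endosomes, had members that rose and members that fell. KIF1B (ENSG00000054523), a motor for mitochondria and synaptic vesicle precursors, had 90.9, 91.9 and 93.7 CPM in siNC and 113, 117 and 118 CPM in siTRIM28 and rose by 0.33 (SE 0.0444, edgeR adjusted p = 1.0e-04). KIF13A (ENSG00000137177), a motor of recycling endosomes, had 146, 144 and 144 CPM in siNC and 127, 133 and 123 CPM in siTRIM28. It fell by 0.18 (SE 0.044, edgeR adjusted p = 0.00608), but missed the threshold with each close pair of libraries summed (0.0544). KIF16B, a motor of early endosomes, had 87.5, 86.4 and 94.6 CPM in siNC and 76.8, 84.8 and 79.6 CPM in siTRIM28. Its change of -0.15 was just past the threshold (SE 0.0567, edgeR adjusted p = 0.0461) and passed in 6 of the 15 other fits.

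The remaining members of this class were not called. KIF1C had 264 to 275 CPM in siNC and 263 to 289 CPM in siTRIM28, and KIF13B had 26.9 to 30.8 and 25.7 to 29.6 CPM, with overlapping groups for both. KIF1A, the neuronal member, had 0.432 to 0.784 CPM in siNC and 0.760 to 1.14 CPM in siTRIM28, a log2 fold change of 0.82 (SE 0.342, edgeR adjusted p = 0.0762) that was not distinguishable from 0 at this depth.

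Of the minus-end transport kinesins, KIFC2 (ENSG00000167702) had 42.4, 42.4 and 39.8 CPM in siNC and 68.8, 63.3 and 69.0 CPM in siTRIM28. The groups were apart, and it rose by 0.69 (SE 0.0604, edgeR adjusted p = 3.67e-06), the third largest rise among the kinesins that passed, after KIF5A and KIF23. KIFC3 had 39.5 to 45.2 CPM in siNC and 41.3 to 44.3 CPM in siTRIM28, a log2 fold change of 0.01 (edgeR adjusted p = 0.895).

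Among the other kinesins, KIF2A (ENSG00000068796, chromosome 5, 62306162 to 62391025), a depolymerase of spindle poles and axons, had 50.3, 53.9 and 52.3 CPM in siNC and 64.8, 68.4 and 65.0 CPM in siTRIM28. It rose by 0.34 (SE 0.0555, edgeR adjusted p = 4.28e-04). KIF24 (ENSG00000186638), a depolymerase at the centriole that restrains cilium formation, had 11.4, 10.5 and 11.6 CPM in siNC and 14.7, 17.2 and 15.8 CPM in siTRIM28. It rose by 0.50 (SE 0.0862, edgeR adjusted p = 6.22e-04). KIF2A overlaps ENSG00000288643 on its own strand over 84820 bases, with 89 and 103 counts on average for that gene in siNC and siTRIM28, so reads of the 2 may not be separable. It also overlaps DIMT1 on the opposite strand over 43742 bases, with 345 and 322 counts on average for DIMT1, and KIF24 holds RNU2-50P on its own strand over 143 bases, with 16.7 and 49.7 counts. KIF7, a ciliary regulator of Hedgehog signalling, had 13.2, 12.4 and 14.3 CPM in siNC and 16.6, 15.8 and 15.5 CPM in siTRIM28. Its change of 0.27 (SE 0.0789, edgeR adjusted p = 0.0179) missed the threshold in DESeq2 (0.14) and without siNC replicate 1 or 2 (0.0672 and 0.102). It also missed it with each close pair of libraries summed (0.0773) and with every gene of at least 1 count tested (0.0505).

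KIF27 (ENSG00000165115), a relative of KIF7 linked to motile cilia, went down. It had 11.7, 11.6 and 14.3 CPM in siNC and 9.57, 8.53 and 7.85 CPM in siTRIM28 and fell by 0.53 (SE 0.114, edgeR adjusted p = 0.00304). KIF7 overlaps TICRR on the opposite strand over 22268 bases, and TICRR had a log2 fold change of 0.28 (edgeR adjusted p = 0.00719). KIF21A, a motor that dampens microtubule growth, had 122 to 131 CPM in siNC and 116 to 118 CPM in siTRIM28, and its log2 fold change of -0.11 did not pass (edgeR adjusted p = 0.0704). KIF9, KIF21B, KIF26A and KIF26B had between 0.760 and 12.1 CPM in every library, overlapping groups and adjusted p between 0.189 and 0.853.

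The 5 members not tested had few reads. KIF12 had 5, 1 and 0 counts in siNC and 10, 11 and 6 counts in siTRIM28, 6 against 27 in sum. Tested with every gene of at least 1 count in total, KIF12 had an edgeR adjusted p of 0.00189, on counts too low for a firm fold. KIF6, KIF19 and KIF25, of which the first pair is known from cilia, had at most 4 counts in a library, and no difference was detectable at this depth.

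Per length, levels of the 37 kinesins tested spanned from KIF1A to KIF5B. KIF5B stood highest at 138 ± 5.11 RPKM in siNC, followed by KIF20A (64.8 ± 1.34) and KIF2C (50.5 ± 0.997). KIFC1 (39.6 ± 0.269), KIF4A (38.5 ± 0.784) and KIF23 (36.0 ± 0.516) followed closely (SD, n = 3). In siTRIM28 the levels were 169 ± 15.0 for KIF5B, 85.4 ± 1.58 for KIF20A, 69.0 ± 0.88 for KIF2C and 60.7 ± 1.26 for KIF23, with KIF4A at 25.2 ± 0.183 below KIFC1 at 44.0 ± 1.04.

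**Figure D5:**
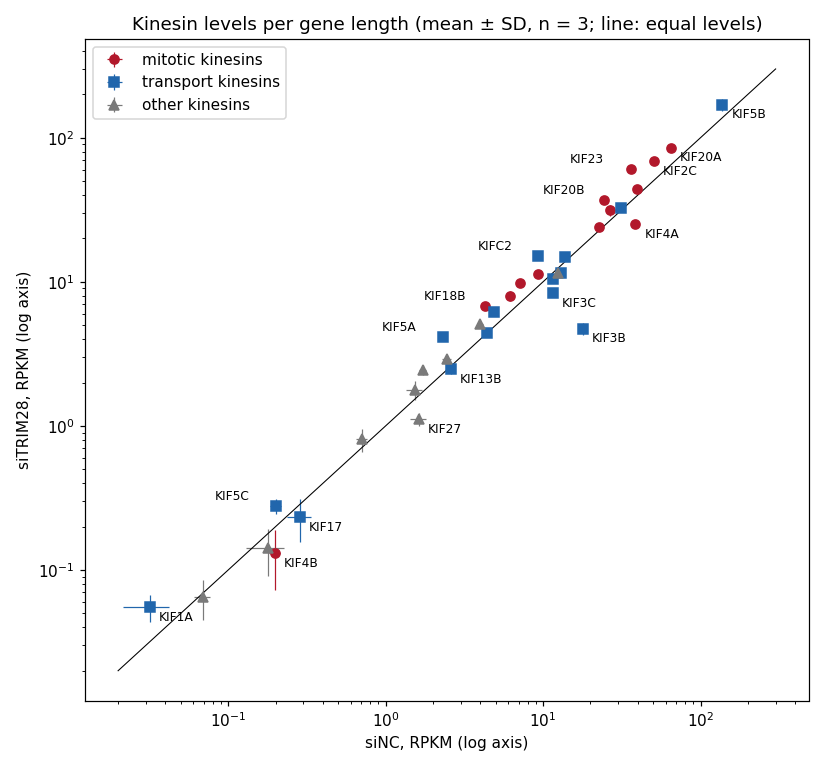
Mean level per gene length (RPKM, log axes) of the 37 kinesins tested in siNC (x axis) and siTRIM28 (y axis), with SD of 3 libraries as bars and a line of equal levels. Mitotic kinesins lie above the line apart from KIF4A and KIF4B, and KIF3B at 18.0 and 4.74 RPKM lies farthest below it among the abundant genes.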

How the data were processed

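T24 cultures were profiled by poly(A)-selected, stranded RNA-seq, 3 given siNC and 3 given siTRIM28. The authors deposited raw read counts per gene for 78932 genes with GRCh38 coordinates and gene lengths. The submitters' processing notes name fastp 0.23.1, STAR 2.7.6a and featureCounts; the annotation release and strand setting are not given in the sources used here. A table of the authors' selected genes was not used.

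A gene was tested where 3 or more libraries had 10 counts or more (18474 genes). Counts were scaled by TMM and fitted with edgeR 4.0.16 (glmQLFit, glmQLFTest, with group as the single factor, R 4.3.3), with Benjamini-Hochberg adjustment at 0.05. The SE equals the log2 change over the root of F. CPM are TMM-scaled. RPKM divide them by the deposited gene length, so RPKM compared between genes depend on those lengths. DESeq2 1.42.0, limma-voom 3.58.1, other scalings, filters and left-out libraries were alternatives. Python 3.11.15, pandas 2.3.3, scipy 1.17.1 and matplotlib 3.10.9 served for tables and figures.

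The members and gene lists were chosen with earlier results of these data known. Every member is accounted for, and those past the threshold are given in every library. Of the lists, TRIM28, CENPE and up to 6 genes per list past the threshold with a log2 change of 0.58 or more in size were named by rule. Some genes that meet it are not reported here. Replicate numbers did not pair the libraries.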

Additional observations from a re-analysis of the deposited data

How the results depend on the processing

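Of the 24 kinesins called, 18 kept their call and direction under every alternative at 0.05, and KIF11, KIFC1, KIF13A, KIF16B, KIF5C and KIF7 did not. Mitotic kinesins called higher lay between 8 and 10 and those called lower stayed at 1. Transport kinesins called lower were 2 with each close pair of libraries summed, and their median log2 fold change was 0.0803 with upper-quartile scaling. With each library left out in turn, that median lay between 0.0231 and 0.0845, the median of the other kinesins between 0.0424 and 0.211, and their count called lower between 1 and 2 (2 without siTRIM28 replicate 1). The sign turned for KIFC3 (-0.0138 with close pairs summed, and -0.0386 to 0.0649 over the left-out libraries), KIF26B (-0.361 to 0.0363) and PRC1 (-0.00111 without siTRIM28 replicate 1 to 0.0366 without replicate 3), none of them called. The cause was not tested. DESeq2 called 5878 genes where edgeR called 7723, and upper-quartile scaling raised the share of calls that were higher from 51.1% to 56.6%. Deviations of libraries with the same number correlated at -0.0118 to 0.0523, so no pairing was used. With a replicate block 7910 genes were called, and the kinesin counts were 10 and 1 for mitotic and 5 and 4 for transport genes. Depth limits the members at about 1 CPM and below, such as KIF1A with an SE of 0.342.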

Other observations

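The motor that walks the other way, cytoplasmic dynein, was read from a list of 23 genes of dynein, dynactin and their regulators, of which 21 were tested, 7 rose and 5 fell, with a median log2 fold change of 0.02. Of all genes tested, 21.3% were higher and 20.5% lower. With each close pair of libraries summed 5 of the list rose and 3 fell, and without siTRIM28 replicate 1 the counts were 8 and 7. DYNC1H1, the dynein heavy chain, had 665, 661 and 693 CPM in siNC and 1181, 1244 and 1259 CPM in siTRIM28. All siTRIM28 libraries lay above all siNC libraries, and it rose by 0.87 (SE 0.0383, edgeR adjusted p = 2.23e-08). The values below belong to genes named after they were seen. PAFAH1B1 (LIS1), a dynein regulator, fell by 0.37 (edgeR adjusted p = 1.55e-04), while its partner NDEL1 rose by 0.41 (edgeR adjusted p = 1.45e-04). DCTN6, a dynactin subunit, fell by 0.39 (edgeR adjusted p = 4.84e-04). DYNLL1, a light chain, had 351, 359 and 310 CPM in siNC and 492, 297 and 303 CPM in siTRIM28, so that siTRIM28 replicate 1 alone lay above siNC, and it was not called (edgeR adjusted p = 0.642). Its log2 fold change lay between -0.182 and 0.225 when each library was left out in turn, so its sign turned.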
